A study of Bos taurus with 22 samples.

Results

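The adipogenic transcription factors are the regulators that switch on and hold the gene program of the fat cell. The 8 factors followed were PPARG, its partner RXRA, the C/EBP factors CEBPA, CEBPB and CEBPD, KLF15, EBF1 and the coactivator PPARGC1A. Every probe set whose single gene symbol in the array's annotation was one of these names was taken, without regard to its signal. This gave 13 probe sets of 7 genes, out of 24016 bovine probe sets of 9155 named genes. EBF1 had no probe set with it as single symbol and was not measured here. PPARG, RXRA, CEBPA and KLF15 had 1 probe set each, CEBPB 2, CEBPD 3 and PPARGC1A 4. A filter on dim probe sets (mean log2 value of at least 5.05, a signal of about 25.3) kept 11 of the 13, and the remaining pair belonged to PPARGC1A.

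The tissue was dorsal subcutaneous white fat of 11 Holstein heifers, each sampled 14 days after and 30 days before her first calving, at 24 to 28 months of age. The 22 samples were hybridised to Affymetrix bovine arrays, giving 11 postpartum and 11 prepartum arrays with a pair for each cow. All animals came from one farm and carried no genetic or drug intervention, and no animal was sampled outside the calving period. The labels describe separate prepartum and postpartum diets, so diet, lactation and time cannot be told apart in any postpartum change. Titles end in 1 of 2 codes of unstated meaning. The 6 cows with one code are called array set 2 here and the 5 with the other array set 1.

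PPARG is a nuclear receptor that binds DNA as a heterodimer with RXRA and is required for fat cells to form. In cultured mouse preadipocytes CEBPB and CEBPD appear early and precede PPARG and CEBPA, which then maintain each other's expression and that of the lipid-storing genes. KLF15 and EBF1 act within the same cascade, while PPARGC1A coactivates PPARG and other nuclear receptors on genes of mitochondria and fuel oxidation.

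Signals are the authors' linear array intensities, and changes are differences of log2(signal + 7.78), postpartum minus prepartum. All arrays had been scaled as a whole to a trimmed mean of 125. Several arrays stood apart in markers of other cells. The level of 15 skeletal muscle genes, as the median log2 distance from each gene's own median over arrays, ran from -0.38 to 8.09 postpartum (highest in cow 384) and from -0.39 to 7.44 prepartum (highest in cow 387). Cow 386 stood at 4.51 postpartum, and the prepartum array of cow 384 at 3.22. The 12 adipocyte markers ran from -1.76 (cow 384) to 0.32 postpartum and from -0.30 (cow 387) to 0.23 prepartum. Epidermal markers, of which 2 were kept, ran from -0.39 to 0.16 postpartum and from -0.41 to 3.15 prepartum, highest in cows 341 (3.15), 382 (2.41), 330 (1.71) and 331 (1.41). Of the 2, KRT10 had a mean log2 change of -1.77 (SD 2.27) and KRT5 of -0.02 (SD 0.49). In cow 387 both arrays also correlated at -0.09 after group means were removed, against 0.18 to 0.43 within the other 10 cows. The pairing of that cow is therefore in doubt. Her muscle markers stood at 7.44 prepartum and -0.02 postpartum. The part of muscle in the low correlation, and the pairing itself, were not tested. In bulk tissue, fewer cells of a type and less RNA per cell cannot be told apart.

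The postpartum tissue differed little from the prepartum tissue in these factors when all cows were averaged. CEBPD, measured by 3 probe sets, was the one factor with a probe set past the test, and it was higher postpartum. The brightest CEBPD probe set, Bt.6406.1.S2_at, did not pass (limma adjusted p = 0.178). By the brightest kept probe set of each gene no factor passed, against 3.71% of all kept genes. PPARG, RXRA, CEBPA, CEBPB, KLF15 and PPARGC1A had no probe set past the test. With limma and cow as a block, 1 of 11 kept member probe sets passed an adjusted p of 0.05, which is 9.09% of them, against 3.43% of all 14410 kept probe sets (494, of which 208 or 1.44% were higher and 286 or 1.98% lower). A further 2 of the 11 had an unadjusted p under 0.05, and over all kept probe sets 19.8% reached that mark. Of those 2, CEBPD Bt.6406.2.A1_at passed the filter only through its postpartum level. The adjusted p of the other 10 ran from 0.105 to 0.996. Half-widths of the 95% intervals ran from 0.20 to 0.49 on the log2 scale, and each of the 13 probe sets had cows on both sides of 0.

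**Figure D1:**
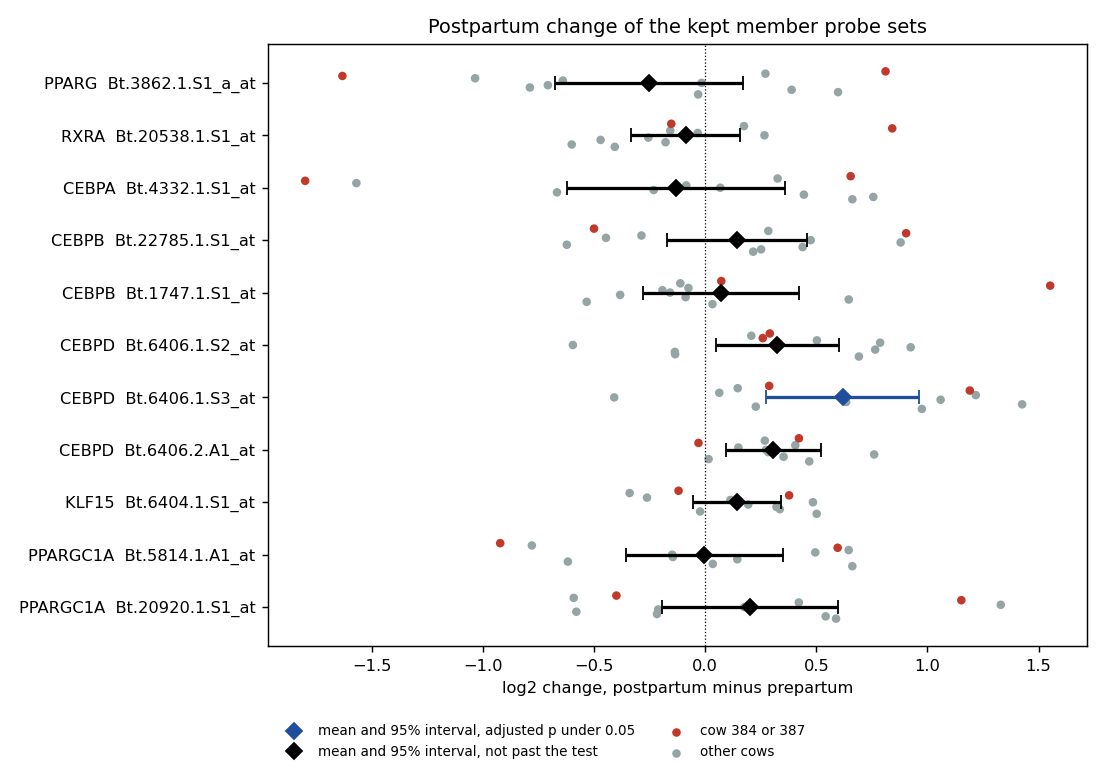
Change of each kept probe set of the adipogenic factors (log2 scale, postpartum minus prepartum). Dots are single cows, diamonds with bars are the mean and 95% interval over 11 cows, and red dots mark cows 384 and 387. Blue marks the one CEBPD probe set past the test, at 0.62, while most other intervals reach across 0.

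PPARG had a signal of 145 at the lowest, 437 at the median and 827 at the highest in postpartum arrays, against 306, 518 and 760 in prepartum arrays. The groups overlapped over most of their range, with the lowest postpartum value in cow 384 and the lowest prepartum value in cow 387, the arrays richest in muscle markers. The mean log2 value was 8.78 ± 0.70 postpartum and 9.04 ± 0.38 prepartum (SD, n = 11 each). The change was -0.25 (SE 0.20, 95% interval -0.68 to 0.17, limma adjusted p = 0.519), with 4 cows higher and 7 lower.

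The mean of PPARG hid wide movement in single animals. Changes ran from -1.63 in cow 384 and -1.04 in cow 382 to 0.60 in cow 331 and 0.81 in cow 387. Cows 330 and 347, at -0.03 and -0.02, barely moved. Array set 2 averaged -0.39 and array set 1 -0.09, a difference that did not pass the test (limma adjusted p = 0.997).

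RXRA, the heterodimer partner, had postpartum signals of 307, 433 and 868 (lowest, median, highest) and prepartum signals of 348, 499 and 577. Its highest postpartum value was in cow 384, where PPARG was lowest. Its change was -0.09 (SE 0.11, 95% interval -0.33 to 0.16, limma adjusted p = 0.715), with 8 of 11 cows lower. Cow 384 alone gained 0.84, and without her the change was -0.18 (adjusted p = 0.209).

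CEBPA, the C/EBP factor of mature fat cells, had postpartum signals of 37.5, 85.1 and 177, against 52.1, 82.4 and 171 prepartum. Cow 384 again held the lowest postpartum value, and the groups overlapped throughout. Its change was -0.13 (SE 0.23, 95% interval -0.62 to 0.36, limma adjusted p = 0.796), with 6 cows higher and 5 lower. Single cows ran from -1.80 (cow 384) and -1.57 (cow 382) to 0.76 (cow 331). The sign of this mean turned when cow 384 was left out, at 0.04, and when cow 382 was left out, at 0.01.

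**Figure D2:**
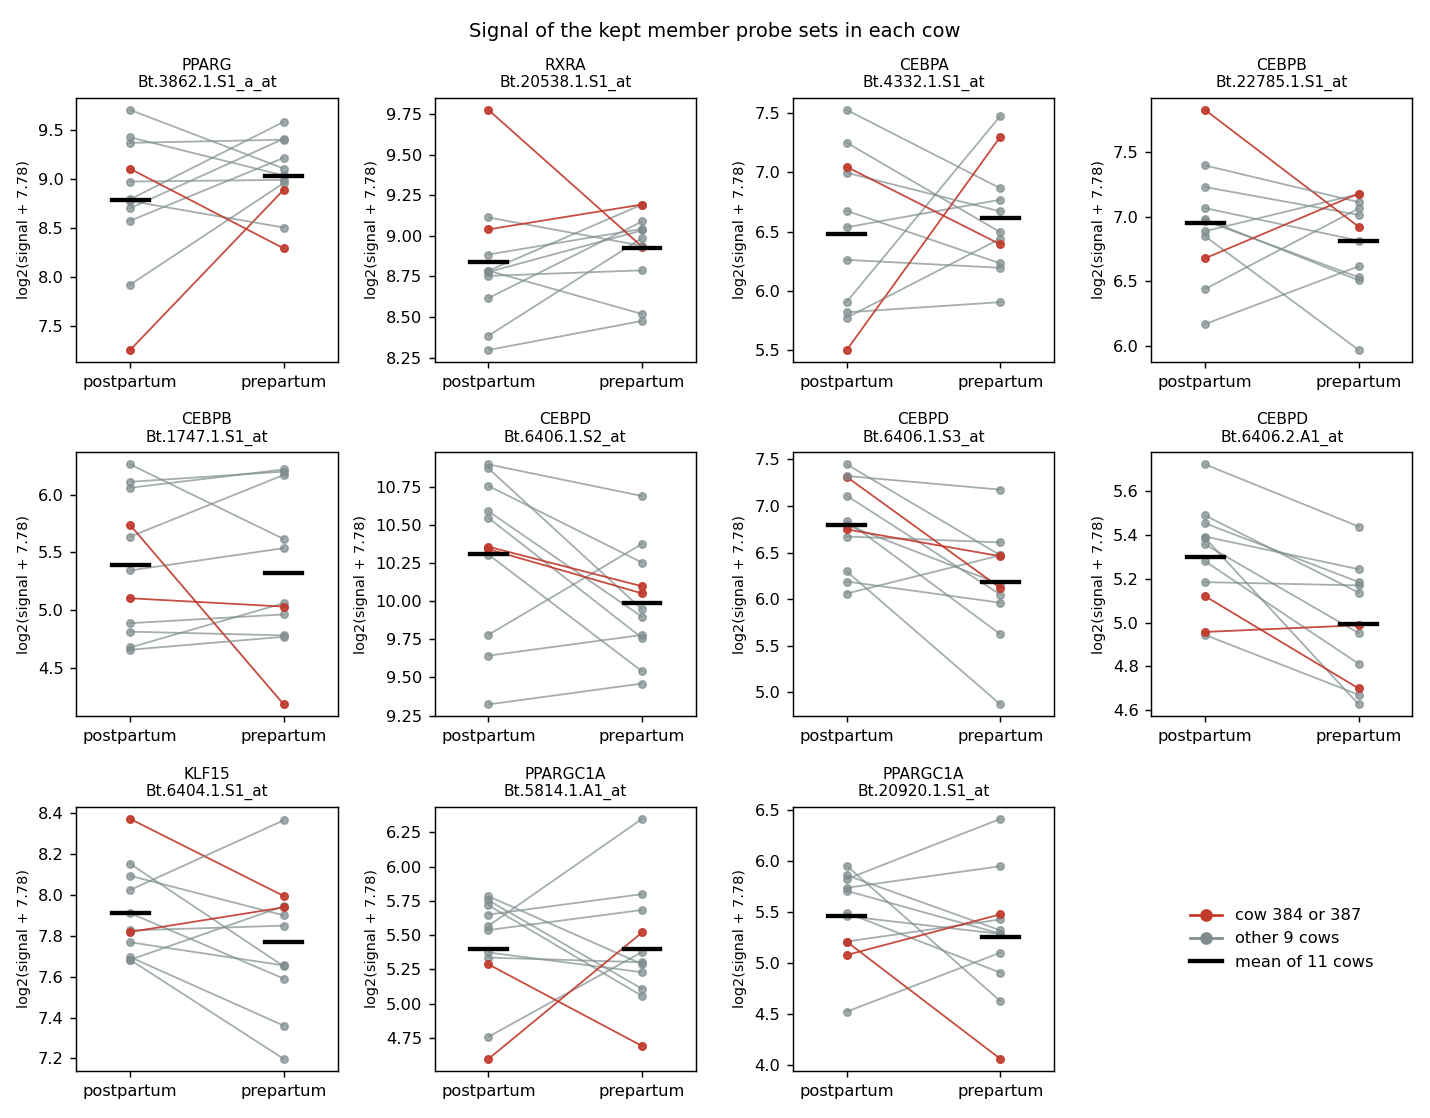
Level of each kept probe set on the log2(signal + 7.78) scale, with postpartum left and prepartum right. Lines join the arrays of a cow, red lines mark cows 384 and 387, and black bars are means of 11 cows. PPARG and CEBPA lines cross in both directions, while 10 of 11 lines of CEBPD Bt.6406.1.S3_at are higher postpartum.

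CEBPD encodes an early C/EBP factor that glucocorticoids and inflammatory cytokines also induce. Probe set Bt.6406.1.S3_at had postpartum signals of 59.0, 103 and 167, against 21.5, 63.8 and 137 prepartum. It was higher postpartum in 10 of 11 cows, with cow 347 the exception at -0.41, and the groups still overlapped. Its change was 0.62 (SE 0.16, 95% interval 0.28 to 0.96, a fold of 1.54), with an unadjusted p of 0.00168 and a limma adjusted p of 0.0497. The mean change was 0.62 in array set 2 and also 0.62 in array set 1.

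That call lay at the threshold. The adjusted p was 0.0266 without cow 347 and 0.0474 without cow 387, but lay above 0.05 whichever of the other 9 cows was left out, up to 0.11 without cow 346 or 360. It was 0.056 without cows 384 and 387, 0.0518 with a pseudocount of 1 and 0.132 with no replicate block.

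The other CEBPD probe sets also had positive means. Bt.6406.1.S2_at had postpartum signals of 632, 1303 and 1898, against 696, 978 and 1643 prepartum. Both extremes came from cows 338 and 386 in each period, and 8 of 11 cows were higher postpartum. Its change was 0.32 (SE 0.13, 95% interval 0.05 to 0.60, limma adjusted p = 0.178). All 6 cows of array set 2 were higher, at a mean of 0.48, and 2 of 5 cows of array set 1, at 0.14.

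Bt.6406.2.A1_at, close to the dim limit, had 23.0, 33.2 and 45.0 postpartum and 16.9, 24.0 and 35.6 prepartum. It was higher in 10 of 11 cows, with a change of 0.31 (SE 0.10, limma adjusted p = 0.105). The S2 and S3 probe sets followed each other over the 22 arrays at r = 0.80, and the A1 probe set followed them at only 0.33 and 0.22. Their changes over 11 cows correlated at r = 0.49 for S2 and S3, 0.34 for S2 and A1 and -0.09 for S3 and A1. By the annotation they are 3 readings of one gene, not independent support.

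CEBPD can come from immune cells as well as from fat cells. The 12 macrophage and monocyte markers ran from -0.72 to 1.46 postpartum, with a median of 0.21, and from -0.64 to 0.49 prepartum, with a median of -0.15. The 5 neutrophil markers ran from -1.82 to 3.30 postpartum (median 0.39, highest in cows 382, 346 and 330) and from -0.96 to 1.74 prepartum (median -0.16).

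For the called probe set, Bt.6406.1.S3_at, the change per cow correlated with that of the macrophage list at r = 0.21 (permutation p = 0.53) and with that of the neutrophil list at r = 0.10 (permutation p = 0.759), with rho of 0.25 and 0.08. For Bt.6406.1.S2_at, which did not pass the postpartum test, the macrophage value was r = 0.62 (permutation p = 0.0417, adjusted 0.169 over 6 relations) and rho = 0.68 (permutation p = 0.0251, adjusted 0.0753). It was 0.01 in array set 2 and 0.92 over the 5 cows of array set 1. Without cows 384 and 387 it was 0.82 (permutation p = 0.00822), and without cows 346 and 347 it was 0.67 (permutation p = 0.0476). Its value with the neutrophil list was 0.52 (permutation p = 0.0994), and 0.25 without cows 346 and 347. That value was 0.90 in array set 2 (permutation p = 0.021, 6 cows) and -0.01 in array set 1. For Bt.6406.2.A1_at the values were 0.59 (permutation p = 0.0562) and 0.12 (permutation p = 0.72). No relation passed after adjustment, and the part of immune cells in the CEBPD difference was not tested further.

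CEBPB, the close relative that acts beside CEBPD early in differentiation, gave readings that did not follow each other over the arrays. Bt.22785.1.S1_at had postpartum signals of 64.2, 118 and 219, against 54.9, 114 and 137 prepartum. The highest postpartum value was in cow 384, and 7 of 11 cows were higher. Its change was 0.14 (SE 0.15, 95% interval -0.17 to 0.46, limma adjusted p = 0.634).

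Bt.1747.1.S1_at, the dimmer one, had 17.5, 32.8 and 68.9 postpartum and 10.4, 25.6 and 66.7 prepartum. Its change was 0.07 (SE 0.16, limma adjusted p = 0.858) with 4 of 11 cows higher, and cow 384 alone gained 1.55. The pair of CEBPB probe sets correlated at r = -0.15 over 22 arrays, and their changes at r = 0.37 over 11 cows. Array set 2 minus array set 1, their levels differed in opposite directions (-1.03 for Bt.1747.1.S1_at, 0.30 for Bt.22785.1.S1_at), which enters the value over 22 arrays. Which of them tracks CEBPB in this tissue is not settled by these data.

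KLF15 is a zinc finger factor. In mice it induces PPARG and the glucose transporter SLC2A4 in fat and amino acid breakdown in liver and muscle. Among the factors' main probe sets, that of KLF15 varied least between cows in its change. Its postpartum signals were 198, 219 and 324, against 139, 223 and 322 prepartum. The highest postpartum value was again in cow 384, and cow 347 was lowest in both periods. The SD of its change was 0.29, against 0.40 for RXRA and 0.88 for CEBPA. Its change was 0.14 (SE 0.09, 95% interval -0.05 to 0.34, limma adjusted p = 0.42), with 7 cows higher.

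PPARGC1A was dim by every probe set. Bt.5814.1.A1_at had 16.4, 38.7 and 47.3 postpartum and 18.0, 31.7 and 73.7 prepartum, with no displacement of the mean (-0.00, SE 0.16, 95% interval -0.36 to 0.35, limma adjusted p = 0.996). Bt.20920.1.S1_at had 15.2, 37.2 and 54.2 postpartum and 8.84, 31.3 and 77.6 prepartum, with a change of 0.20 (SE 0.18, limma adjusted p = 0.595). Both had 6 of 11 cows higher, both peaked prepartum in cow 386 and postpartum in cow 360, and their changes correlated at r = 0.76.

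The PPARGC1A probe sets below the filter were near the floor of the array. Bt.5823.1.S1_at ran from 4.14 to 16.5 postpartum and from 0.559 to 18.9 prepartum. Bt.12148.1.S1_at ran from 2.13 to 18.6 postpartum and from 1.16 to 19.4 prepartum. With no filter, limma gave them adjusted p-values of 0.753 and 0.365.

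Between animals, PPARG and CEBPA moved together. Cows with more PPARG after calving also had more CEBPA than before. Cows with less PPARG had less CEBPA, except cows 330 (CEBPA 0.66) and 347 (0.07), whose PPARG barely moved (-0.03 and -0.02). Over 11 cows the changes of PPARG and CEBPA correlated at r = 0.92 (permutation p = 1e-05, the smallest 100000 resamples can give, 0.00021 after adjustment over 21 pairs of factors). The rank correlation was 0.89 (permutation p = 0.00047, adjusted 0.00987). Both genes moved in the same direction in 9 of 11 cows.

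The relation did not rest on the most extreme animals. Without cows 382 and 384, the ones farthest from the median of PPARG, r was 0.88 (permutation p = 0.0017). Within array set 2 it was 0.92 (permutation p = 0.00841, 6 cows), and within array set 1 it was 0.94 over 5 cows. Without cows 384 and 387 it was 0.87 (adjusted permutation p = 0.0143), and without cow 386 as well it was 0.87 (adjusted permutation p = 0.0588). With single cows left out, r lay between 0.87 and 0.94.

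Pooled over the array sets, levels showed the relation in one period. Across the 11 postpartum levels PPARG and CEBPA correlated at r = 0.78 (permutation p = 0.00215, adjusted 0.0451) and rho = 0.76 (permutation p = 0.00804, adjusted 0.169). Without cows 331 and 384, the farthest from the median, r was 0.66 (permutation p = 0.0471). Within the array sets, whose levels differ, the postpartum r was 0.98 in set 2 and 0.97 in set 1. Across the 11 prepartum levels r was -0.05 (permutation p = 0.883) and rho -0.09 (permutation p = 0.798). Within the array sets the prepartum r was positive, at 0.37 in set 2 (permutation p = 0.46, 6 cows) and 0.27 in set 1. The difference between the periods' correlations was not tested. The postpartum SD was 0.70 for PPARG and 0.68 for CEBPA, against prepartum SDs of 0.38 and 0.47, so the prepartum range was narrower.

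Of the 21 pairs of factors, PPARG with CEBPA was the only one past the adjusted threshold, and 7 correlations were positive. PPARG with PPARGC1A came next, at r = -0.72 (permutation p = 0.0144, adjusted 0.152) and rho = -0.71 (permutation p = 0.0189, adjusted 0.199), and at r = -0.60 without cows 382 and 384. PPARG and RXRA levels ran opposite in postpartum arrays at r = -0.80 (permutation p = 0.00554, adjusted 0.0582) and rho = -0.56 (permutation p = 0.0764). Without cows 331 and 384, the farthest from the median, r was -0.36 (permutation p = 0.322), so the pooled relation rested on them. It was -0.64 without cows 384 and 387 (permutation p = 0.0655), -0.73 within array set 2 (permutation p = 0.0828, 6 cows) and -0.84 over the 5 cows of array set 1.

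**Figure D3:**
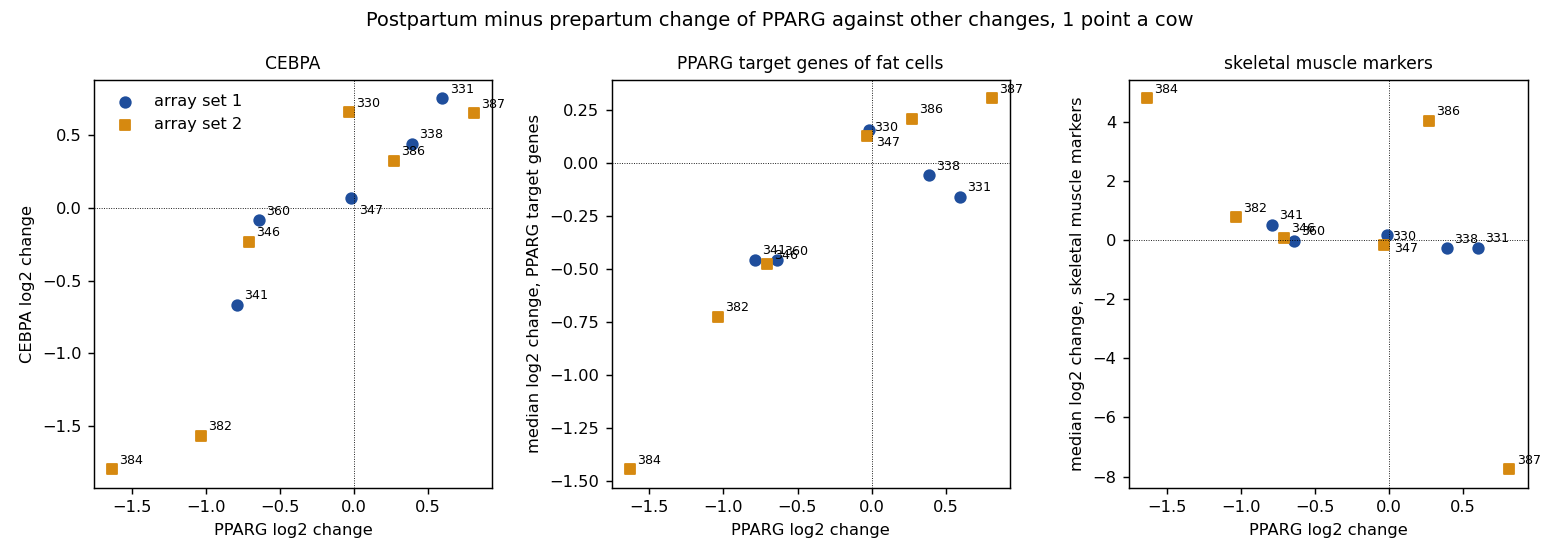
Change of PPARG in each cow (horizontal axis, log2) against that of CEBPA, the median of 27 PPARG target genes and the median of 15 skeletal muscle markers (vertical axes, log2). Numbers are cows, with circles for array set 1 and squares for array set 2. CEBPA and the targets climb with PPARG (r = 0.92 and 0.90), while the muscle markers stand apart from 0 chiefly in cows 384, 386 and 387.

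Changes of genes listed as PPARG targets in fat cells, taken as their median, correlated with that of PPARG over cows. The list does not give the direction in which PPARG acts on each gene. The median change over 27 kept target genes correlated with that of PPARG at r = 0.90 (permutation p = 0.00014, adjusted 0.00294 over 42 relations) and with that of CEBPA at r = 0.88 (permutation p = 1e-04, adjusted 0.00294). It had the same sign as PPARG in 7 of 11 cows and as CEBPA in 9. In cows 331 and 338 PPARG gained 0.60 and 0.39 while the target median was -0.16 and -0.06. The rank correlations were 0.83 (permutation p = 0.00239, adjusted 0.0512) and 0.74 (permutation p = 0.012, adjusted 0.0743), past the threshold only before adjustment. Without the 2 farthest cows r was 0.79 (permutation p = 0.0168) for PPARG and 0.70 (permutation p = 0.0379) for CEBPA. For PPARG it was 0.97 in array set 2 and 0.68 in array set 1. Without cow 384 both relations had an adjusted p of 0.0659, and without cows 384 and 387 r for PPARG was 0.80 (adjusted permutation p = 0.129).

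Adipocyte markers gave nearly the same correlations, 0.85 with PPARG (adjusted permutation p = 0.00336, rho = 0.83) and 0.86 with CEBPA (adjusted permutation p = 0.0043, rho = 0.74). That list is not separate evidence, since 11 of its 12 kept genes are also among the targets. Correlation of PPARG with the skeletal muscle markers was r = -0.58 (permutation p = 0.0489, adjusted 0.187) and rho = -0.75 (permutation p = 0.0111, adjusted 0.0743), and r was 0.10 without cows 384 and 387. How much of the shared movement reflects the share of fat cells in each biopsy was not tested.

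Gene by gene, 18 of the 27 targets passed the adjusted threshold with PPARG over 54 relations, all positively, with r of 0.70 to 0.97. By rank correlation 13 of the 27 passed with PPARG and 12 with CEBPA. DGAT2, which makes the last step of triglyceride synthesis, was closest (r = 0.97, rho = 0.95, adjusted permutation p = 0.00054). It stayed at 0.95 without cows 382 and 384, at 0.99 in array set 2 and at 0.96 in array set 1.

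MGST1, a membrane glutathione transferase, followed at r = 0.95 (rho = 0.98). LPL, the lipase that releases fatty acids from circulating lipoproteins, also stood at 0.95 (rho = 0.96), and the hormone LEP at 0.92 (rho = 0.97, adjusted permutation p = 0.00117 for r). Without cows 382 and 384, r was 0.93 for MGST1, 0.93 for LPL and 0.91 for LEP.

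The same 18 targets passed with CEBPA, at r of 0.70 to 0.88. The highest were ACAA2, a thiolase of fatty acid oxidation (0.88), the adiponectin receptor ADIPOR2 (0.88), MGST1 (0.87) and DGAT2 (0.86).

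The 9 targets that did not pass with PPARG were ACSL1, CD36, GPD1, PLIN2, CFD, FABP4, SLC2A4, ANGPTL4 and PDK4. FABP4, the fatty acid carrier often used to mark fat cells, stood at r = 0.16, and the insulin-responsive transporter SLC2A4 at -0.05. ANGPTL4, an inhibitor of LPL, and PDK4, which spares glucose from oxidation, stood at -0.29 and -0.45. GPD1 stood at 0.46. Without cows 384 and 387, r was 0.93 for GPD1 (permutation p = 0.00097) and 0.72 for SLC2A4 (permutation p = 0.0325), both before adjustment. The others then stood at 0.55 (ACSL1), 0.13 (CD36), -0.07 (PLIN2), -0.67 (CFD), -0.23 (FABP4), -0.50 (ANGPTL4) and -0.26 (PDK4).

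As a description of the arrays as a whole, 66.7% of the targets had r of at least 0.70 with PPARG, against 5.93% of all 6983 genes, whose median was 0.06. With CEBPA the shares were 66.7% of the targets and 4.93% of all genes. Over the 9 cows without 384 and 387 they were 48.1% and 4.14% with PPARG, and 37% and 3.84% with CEBPA. The number of targets past the adjusted threshold was then 10 with PPARG and 6 with CEBPA, and without cow 386 as well 6 and 0.

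Without the arrays of cows 384, 386 and 387, and with group means removed, the genes most like PPARG over 16 arrays were CBR4 (r = 0.91), an enzyme of mitochondrial fatty acid synthesis, and the acyltransferase ZDHHC13 (0.90). For CEBPA they were MAL2 (0.91) and TGOLN2 (0.89), both of membrane traffic. CEBPD, by Bt.6406.1.S2_at and not the called probe set, was most like TGFBI (0.89), a matrix protein, and LAT2 (0.87), an adaptor of immune cell receptors. KLF15 was closest to TRNT1 (0.83) and CIAO2B (0.81), RXRA to ATG4D (0.84) and WASHC1 (0.83), CEBPB to CHMP2B (0.88) and TAX1BP1 (0.83), and PPARGC1A to FOLR2 (0.78) and POLR2G (0.78). These values are the highest of 6983 genes and describe these arrays only. Over all 22 arrays the same pairs ran from 0.20 (FOLR2) and 0.35 (POLR2G) to 0.90 (CBR4), with 0.61 for TGFBI and 0.55 for LAT2.

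The wider adipogenic network was followed through gene lists, whose differences from one another were not tested. Of 27 kept PPARG target genes, 6 fell and 2 rose, with a median change of -0.30, against a median of 0.01 over all kept genes, of which 3.71% were called (1.55% higher and 2.16% lower). SCD, the desaturase that makes oleic acid, changed by -1.83 (SE 0.32, limma adjusted p = 0.00774) and was lower in 11 of 11 cows. LEP changed by -1.78 (SE 0.40, limma adjusted p = 0.0268), MGST1 by -1.20 (SE 0.29, adjusted p = 0.0343) and LPL by -1.18 (SE 0.28, adjusted p = 0.0323). GPD1 and AGPAT2, which feed and extend the glycerol backbone of triglycerides, fell as well, and PDK4 and ANGPTL4 rose.

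The number of called targets was 3 or 4 without cow 330, 341, 346, 360 or 382, each left out alone, and 11 without cow 387, and was 0 in each array set alone and 1 with an exact sign-flip test. DGAT2, the target nearest to PPARG across cows, had a change of -1.29 that did not pass (SE 0.37, limma adjusted p = 0.0673).

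Among 15 other kept adipogenic factors 1 rose and none fell, a share near the 3.71% of all kept genes called. The list median was -0.03. The one that rose was HMGA1, a chromatin protein that in cultured mouse cells acts with the C/EBP factors. Its change was 0.59 (SE 0.15, limma adjusted p = 0.0394, higher in 9 of 11 cows). Its mean log2 value was 4.88 prepartum, below the limit of the filter on dim probe sets, and 5.47 postpartum. HMGA1 therefore passed that filter only through its postpartum level. It was no longer called without any one of cows 330, 331, 341, 346, 347, 382 and 386, and without cow 384 there were 2 called.

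Among 12 nuclear receptor partners and cofactors none passed, and the median was 0.08. The smallest p there belonged to TBL1XR1, a subunit of the NCoR complex (0.21, limma adjusted p = 0.131). Without cow 384 the count was 1.

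Of 11 brakes on adipogenesis, such as the Wnt effector TCF7L2 and ID3, none passed. The lowest p was shared by CTNNB1, the β-catenin of Wnt signalling (-0.16), and ID3, which blocks helix-loop-helix factors (0.54), both with a limma adjusted p of 0.159. The median was 0.10, with 10 of 11 genes positive, against 52.6% of all kept genes. Without cow 384 the count was 1 here too.

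Genes tied to single factors were also followed. Of 12 acute phase and cytokine partners of CEBPB and CEBPD, 1 rose, against 1.55% of all kept genes called higher. The median was 0.29, and 10 had a positive change, as did 52.6% of all kept genes. The one that rose was IL6R, the interleukin 6 receptor, at 0.85 (SE 0.14, limma adjusted p = 0.00495), higher in 11 of 11 cows. Without cow 347 there were 2 called.

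Of 12 glucocorticoid-induced genes, 1 rose and 1 fell, with a median of -0.06. Over all kept genes 3.71% were called (1.55% higher and 2.16% lower). ANGPTL4 was the one that rose (0.74, SE 0.13, limma adjusted p = 0.00805). ERRFI1, an inhibitor of EGF receptor signalling, fell (-0.68, SE 0.11, limma adjusted p = 0.00368) in 11 of 11 cows.

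Of 17 PPARGC1A targets, 1 rose, again a share near the 3.71% of all kept genes called. It was PDK4, at 0.74 (SE 0.16, limma adjusted p = 0.0205), and the list median was 0.08. Without cow 384 the number called was 3, without cow 387 it was 2, and without cow 330 or 346 it was 0.

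Of 11 genes linked to KLF15 1 fell and none rose, with a median of -0.26. Over all kept genes 2.16% were called lower and 1.55% higher. The one that fell was ACSS2 (-1.67, SE 0.38, limma adjusted p = 0.0288), which makes acetyl-CoA from acetate, the main lipogenic substrate of ruminants, and is no amino acid enzyme. The number called was 0 without any one of cows 330, 341, 346, 347, 360 and 382, 2 without cow 338 and 4 without cow 384.

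**Figure D4:**
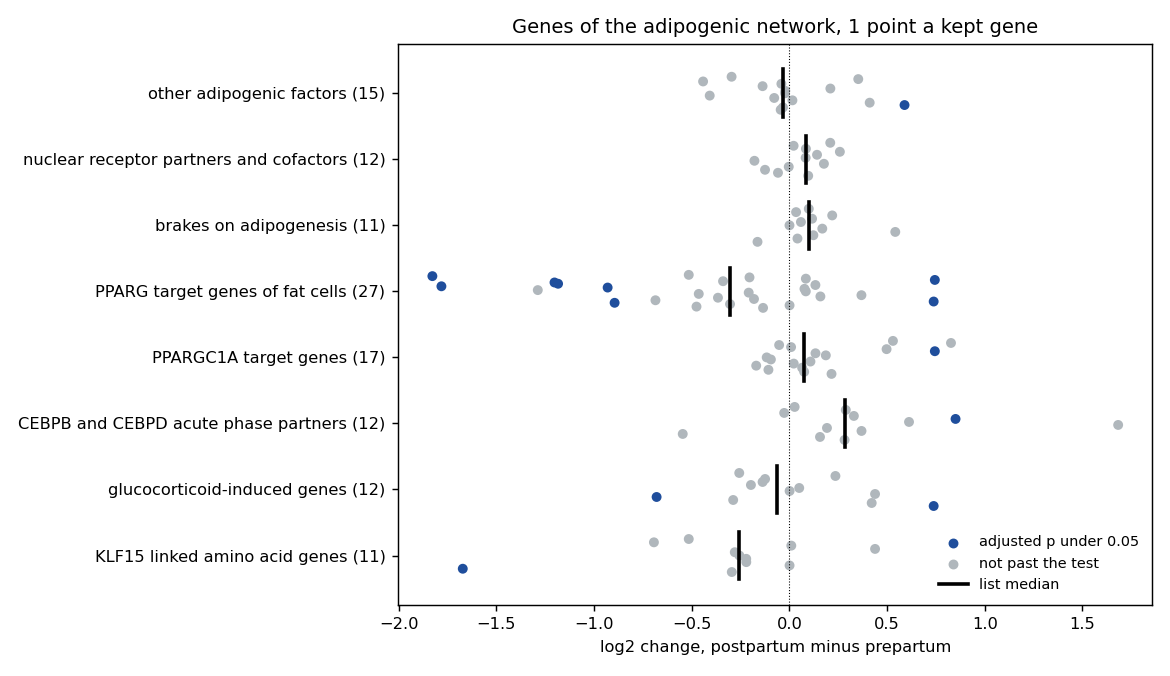
Postpartum minus prepartum change (log2) of each kept gene of the network lists, with the number of genes in brackets. Blue points passed the test, grey points did not, and black bars are list medians. PPARG targets reach down to -1.83, and other adipogenic factors up to 0.59.

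The level of several factors differed between the cows of both array sets, averaged over the periods. With limma on the mean of each cow's 2 arrays, 5 of the 11 kept member probe sets passed an adjusted p of 0.05, against 15.2% of all kept probe sets. CEBPB Bt.1747.1.S1_at differed most, by -1.03 in array set 2 minus array set 1 (SE 0.14, limma adjusted p = 0.000757). Its prepartum signals were 10.4 to 25.6 in array set 2 and 38.6 to 66.7 in array set 1, without overlap. Its postpartum signals were 17.5 to 45.5 in array set 2 and 32.8 to 68.9 in array set 1, with only cow 384 reaching into the other range.

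The other 4 were higher in array set 2. CEBPD Bt.6406.1.S3_at differed by 0.66 (limma adjusted p = 0.018) and Bt.6406.1.S2_at by 0.54 (0.0242), RXRA by 0.39 (0.0244) and KLF15 by 0.34 (0.042). With every array scaled to the same median, CEBPB Bt.1747.1.S1_at and CEBPD Bt.6406.1.S3_at alone still passed. Without cows 384, 386 and 387, and likewise without cows 330, 331, 341 and 382, the CEBPB probe set alone passed. Single cows left out gave 2 to 5. The gaps within each period were not tested. For CEBPD Bt.6406.1.S2_at the gap was 0.72 in postpartum and 0.37 in prepartum arrays, for RXRA 0.49 and 0.28, and for KLF15 0.25 and 0.44.

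PPARG (-0.42, limma adjusted p = 0.155) and CEBPA (0.44, adjusted p = 0.103) did not pass. The code, the cows and whatever else went with the code cannot be told apart here. For the postpartum change itself, no probe set on the array passed the test of a difference between array sets (0 of 14410 by limma, 516 or 3.58% at an unadjusted p under 0.05, and 11 past the adjusted threshold without cows 384, 386 and 387). In simulated data without outlying cows that test recovered 45% of differences of 1 log2, so smaller differences could be missed.

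**Figure D5:**
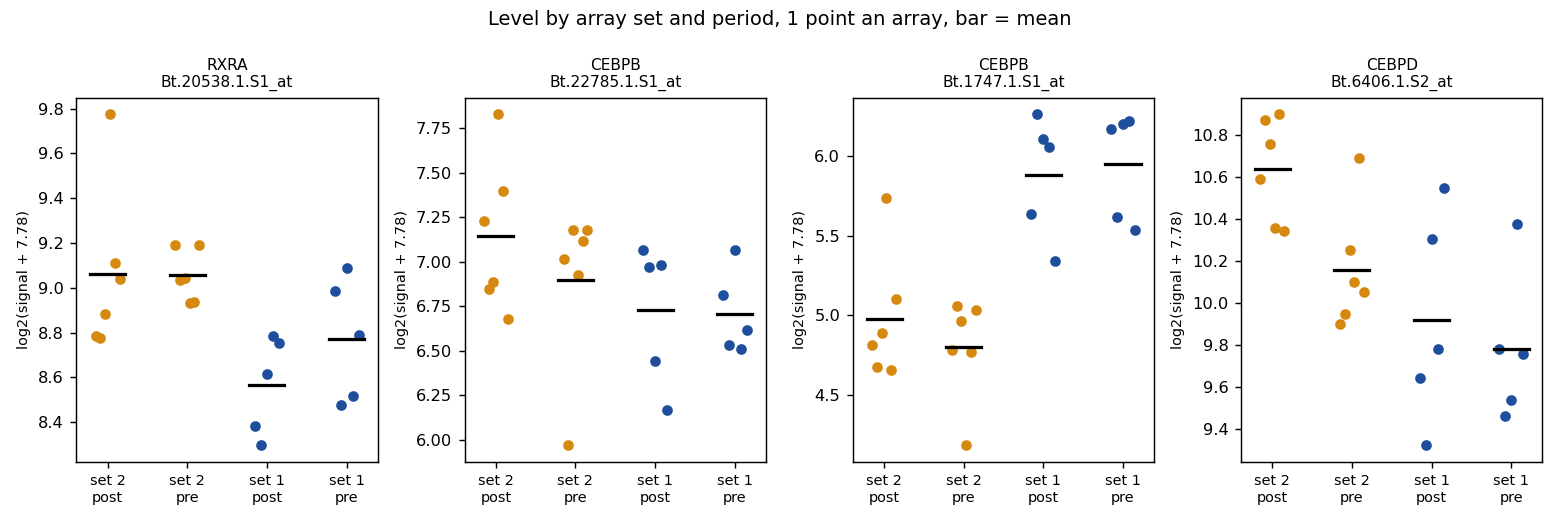
Level on the log2(signal + 7.78) scale by array set and period, with 1 point for each array and a bar for the mean. CEBPB Bt.1747.1.S1_at is lower in array set 2 in both periods, whereas RXRA and CEBPD Bt.6406.1.S2_at are higher there.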

How the data were processed

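The authors summarised each array with MAS5, per the submitters' processing notes. The deposited values are linear signal intensities, scaled by the authors to a trimmed mean of 125 (2% removed at each end) on every array. The sources used here give neither MAS5 settings nor a genome build. Arrays have no read depth, so their number limits the precision. Median bovine signal was 39.9 to 47.4.

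Of 24128 probe sets, 112 controls were left out. Of the 24016 others, 13292 had 1 gene symbol, 86 several and 10638 none in the platform annotation; 13263 were named through the Entrez identifier in a RefSeq table. Values were analysed as log2(signal + 7.78), the offset being a typical array's 20th percentile of bovine signals (median over arrays). Probe sets with a mean at or above the 40th percentile were kept (14410, of 6984 genes). The main probe set of a gene is the kept one with the highest mean.

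Postpartum minus prepartum change was tested with limma 3.58.1 (R 4.3.3; lmFit, eBayes with intensity trend), with cow as a fixed block because the series design and the cow numbers in the titles pair the arrays. Benjamini-Hochberg adjustment ran over all kept probe sets. As a check, arrays of the same cow correlated at 0.18 to 0.43 in 10 cows and at -0.09 in cow 387. The interaction with array set used the same fit. Correlations of changes over cows had two-sided permutation tests with 100000 resamples, adjusted within 21 pairs of factors, 42 pairs of factor and list, 54 pairs of factor and target, and 6 pairs of CEBPD probe set and immune marker list. The last 3 families and the array set levels were chosen after the data were seen. Figures used Python 3.11.15 and matplotlib 3.10.9.

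In simulated data of 14410 probe sets, the test of the postpartum change recovered 89% of changes of 1 and 52% of changes of 0.5 (log2), with 11 false calls among 152. The test of the array set difference in change recovered 88% of differences of 2 and 45% of differences of 1. Each simulation changed 100 probe sets of each size and drew independent normal noise, with the same SD for a probe set in every cow. It held no outlying cows or doubtful pair, so recovery in the real arrays may differ.

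All member probe sets are reported. Of each gene list, up to 4 called genes with the largest change are named, or the gene with the smallest p where none was called; the 2 genes most like each factor are named; targets named for their correlation were chosen after their values were seen. Members and lists were chosen with earlier results of these data known. Alternatives covered block, normalization, pseudocount, filter, variance trend, array weights, test, array set and cows left out.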

Additional observations from a re-analysis of the deposited data

Results flagged for a closer look

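Within array set 2, the change of CEBPB Bt.1747.1.S1_at in cow 384 was 1.55 (log2, postpartum minus prepartum), while the other 5 cows of that set lay between -0.38 and 0.07. The gap to the nearest cow was 0.765 of the whole range of the 6 cows. The search covered 26 groups of cows, and chance alone singles out about 1 in 20 groups. The postpartum array of cow 384 held the highest skeletal muscle markers (8.09), and their part in this value was not tested.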

How the results depend on the processing

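Leaving out cows 384 and 387, leaving out cow 386 as well, and leaving out cows 330, 331, 341 and 382, whose arrays had raised muscle or keratin markers, are below called settings M, N and K. Against 494 called probe sets, the postpartum effect gave 338 with no replicate block, 1076 with array weights, 285 with an exact sign-flip test, 0 within array set 2 (limma, 1502 at an unadjusted p under 0.05), 69 within array set 1, 1083 in M, 951 in N, 6 in K, and 243 (without cow 382) to 985 (without cow 384) with single cows left out. The count of called member probe sets, 1 over all cows, was 0 with no replicate block, cow as a random effect, a pseudocount of 1, no filter, no intensity trend, the sign-flip test, either array set alone, M, N and K, and 0 to 1 without single cows. It was 1 with quantile normalization, equal medians, a pseudocount of 32, the 60th percentile filter and array weights. The array set difference in change gave 11 probe sets in N. The count of member probe sets whose level differed between array sets, 5 over all cows, was 2 with equal medians, 3 in M, 1 in N, 1 in K, and 2 to 5 without single cows.

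Targets correlated with PPARG numbered 10 in M and 6 in N, against 18 over all cows, and targets correlated with CEBPA 6 and 0. Pairs of factors past the threshold numbered 0 in N and 3 in K, against 1. Relations with list scores numbered 0 in M, 1 in N, 8 in K and 0 to 6 without single cows, against 4. Changes that turned sign were all far from the threshold. They were CEBPA (0.0038 with array weights, 0.10 in array set 1), CEBPB Bt.1747.1.S1_at (-0.047 with array weights, -0.066 in array set 1, -0.096 in M and -0.094 in N), RXRA (0.0069 in array set 2 and 0.094 in K) and PPARGC1A Bt.5814.1.A1_at (0.0089 in array set 2, 0.032 in M and 0.13 in N). Without single cows they ran from -0.22 to 0.035 for CEBPA, -0.079 to 0.13 for CEBPB Bt.1747.1.S1_at and -0.070 to 0.088 for PPARGC1A Bt.5814.1.A1_at. The causes were not tested. Signals of PPARGC1A and of the dimmer CEBPB and CEBPD probe sets lie near the filter value of 25.3, which limits what they can show.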
